A study of Mus musculus with 8 samples.

Results

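The genes described here are the enzymes that add methyl or acetyl groups to lysines of histones and those that take them off. They were found by symbol, as every listed gene whose name starts with Kmt2, Kmt5, Kdm, Setd or Hdac, or with Kat and a number, plus Ezh1, Ezh2, Eed, Suz12, Ehmt1, Ehmt2, Suv39h1, Suv39h2, Nsd1, Dot1l, Ep300, Crebbp, Ash1l and Sirt1. The rule found 62 of the 9307 genes in the table, and it used no measured value itself. Every listed gene had at least 1 read in every library, so the members are limited to detected genes. Of these, 37 are writers, which add a mark, and 25 are erasers, which remove one. The writers are 25 methyltransferases, 10 acetyltransferases, and Eed and Suz12, the non-catalytic core subunits of the methyltransferase complex PRC2. The erasers are 15 demethylases and 10 deacetylases. The rule goes by name, and some members are known mainly for other substrates, such as Setd3 (actin), Hdac6 (tubulin) and Hdac10 (polyamines). The reference annotation holds 69 protein-coding genes of this rule, and the 7 that are not in the table (Hdac9, Hdac11, Kdm4d, Kdm7a, Kdm8, Kmt5c and Setd4) are not analysed here.

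The cells were a line of wild-type mouse embryonic fibroblasts (MEF), connective tissue cells from mouse embryos, that carries SV40 T antigen, a viral oncoprotein under which cells go on dividing. EV cells were transduced with empty vector, and OE cells with pBabe retroviral vectors for wild-type METTL1 and WDR4, which form a methyltransferase complex that methylates a guanosine of some tRNAs. Both were described as stable clones, were kept under puromycin and G418, and were expanded and lysed without antibiotic. Cycloheximide was used to stop ribosomes before lysis, and total RNA (input) and ribosome-protected fragments (RPF) were sequenced, giving 4 groups of 2 libraries. The labels do not say whether replicates came from separate cultures, so p-values measure spread among libraries that may be technical. If each genotype is a single clone, clone and genotype cannot be told apart.

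The libraries held 294367 to 371520 reads in listed genes for input and 526699 to 864147 for RPF, and the first principal component held 66.7% of the variance. Mettl1 and Wdr4 were not past the threshold in either kind of library. Mettl1 input was 16.7 and 14.0 normalized reads in EV against 33.7 and 16.0 in OE, and Wdr4 input was 16.7 and 26.7 against 24.1 and 42.6, so the values overlapped for both genes. In the RPF libraries Mettl1 was 25.7 and 25.6 in EV against 40.1 and 22.4 in OE, with overlap, and Wdr4 was 15.2 and 15.1 against 25.8 and 24.2, without overlap (log2 change 0.69, SE 0.32, limma adjusted p = 0.454). Of 17 fibroblast markers 14 were listed (Fap, Lum and Thy1 were not). Of the markers of other cell types, Krt18, Csf1r, Fabp4 and 3 neural genes were listed, and none of the endothelial, muscle or pluripotency markers.

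Histone tails are marked on lysines, and the effect depends on the residue. Methylation of lysine 4 of histone H3 and acetylation are typical of active promoters and enhancers, whereas methylation of lysines 9 and 27 of H3 accompanies silent chromatin. Each mark has its own writers and erasers, and in fibroblasts they are best known for fixing cell identity and for controlling entry into senescence. All values are the authors' size-factor-normalized reads. A log2 change is a difference of log2(value + 1), given with its standard error (SE), and p-values are two-sided, from limma, with Benjamini-Hochberg adjustment over all 9307 genes and a threshold of 0.05. All 62 members passed the filter on low values, a mean of at least 1.

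The members took a small share of the input reads and a smaller share of the RPF reads. They held 0.918% and 0.879% of the reads in the EV input libraries, 0.776% and 0.827% in the OE input libraries, 0.510% and 0.516% in EV RPF, and 0.505% and 0.448% in OE RPF. Both OE input shares were below both EV input shares. The writers' share of input was 0.639% and 0.602% in EV against 0.528% and 0.572% in OE, and the erasers' share was 0.279% and 0.277% against 0.248% and 0.256%. Per kilobase of transcript, the member with the highest input in EV cells was Hdac2 with 71.1 normalized reads, followed by Kmt5a with 66.4, Ehmt2 with 48.7, Hdac3 with 44.1 and Ezh2 with 34.6. The lowest were Kdm5d with 0.880 and Kdm1b with 1.03. Per kilobase of coding sequence, RPF in EV cells was highest for Hdac2 with 110 normalized reads, then Hdac3 with 66.4 and Suv39h1 with 45.6, and lowest for Kat6b with 0.754 and Kdm6b with 0.984.

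In the EV cells, the RPF of most of these enzymes was low for the amount of their mRNA. The difference between RPF and input was past the threshold for 32 of the 62 members, and it was negative for each of the 32 (51.6% of members, against 37.7% of all genes past the threshold, 19.1% with a negative and 18.5% with a positive difference). The median log2 difference was -0.70 for the members and 0.02 for all genes. Before adjustment 34 members had a p under 0.05 (45.4% of all genes), and 50 had a difference below 0 (49.0% of all genes). Both RPF values lay below both input values for 43 members (34.0% of all genes) and above them for 5 (35.2% of all genes). Both kinds of library were scaled with factors computed over all 8 libraries, so each difference is relative to the other genes and not an absolute rate of translation. Writers stood lower than erasers, a difference between classes that no test bears on, since members are not replicates of a condition. The median was -0.97 for the 37 writers, of which 23 passed, and -0.28 for the 25 erasers, of which 9 passed. By class, 16 of 25 methyltransferases passed (median -1.17), 6 of 10 acetyltransferases (median -0.87), 6 of 15 demethylases (median -0.28) and 3 of 10 deacetylases (median -0.21).

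**Figure D1:**
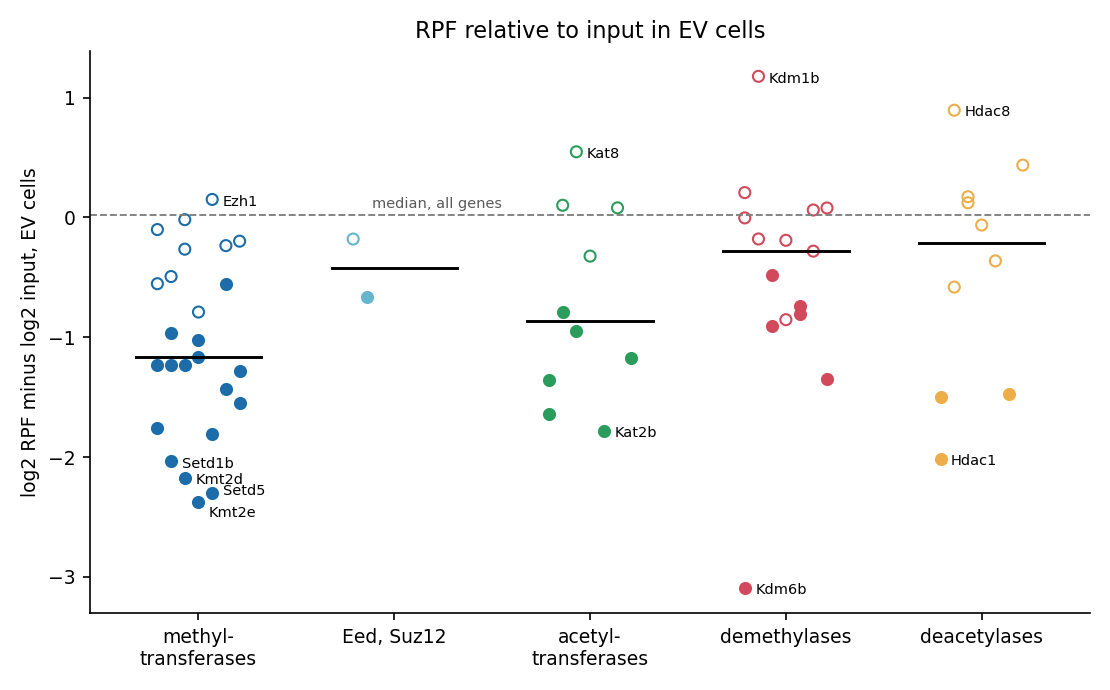
RPF relative to input in the EV cells for each of the 62 members, by class, as the log2 RPF minus log2 input difference from limma (vertical axis). Filled points passed the adjusted threshold, open points did not, black bars are class medians and the dashed line is the median of all genes (0.02); the filled points all lie below 0, down to -3.09 for Kdm6b.

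The lowest member was Kdm6b, a demethylase of lysine 27 of H3 that is induced in inflammation and differentiation. Its input was 47.5 and 48.4 normalized reads in EV, while its RPF was 5.93 and 3.76 (9 and 5 reads). The input and RPF values did not overlap, and the log2 difference was -3.09 (SE 0.37, limma adjusted p = 1.18e-07). Its paralog Kdm6a, which has the same substrate and lies on the X chromosome, had 35.9 and 44.6 for input and 17.8 and 12.8 for RPF, a log2 difference of -1.35 (SE 0.29, limma adjusted p = 0.000529). Per kilobase, Kdm6b had 1.06 times the input of Kdm6a and 0.275 times its RPF in EV cells. Next came Kmt2e at -2.38, Setd5 at -2.30, Kmt2d at -2.17 and Setd1b at -2.04. Hdac1 followed at -2.01, but only 36.5% of its 28-base subsequences are found in no other annotated gene, so its counts are uncertain. The highest values, 1.18 for Kdm1b and 0.89 for Hdac8, were not past the threshold (limma adjusted p = 0.0874 and 0.12).

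The members are long genes, and the difference went with length over all genes too. Spearman's rho between the number of codons and the log2 difference was -0.51 over the 62 members and -0.41 over all genes with a complete coding sequence. These are descriptions across genes that share the same libraries. Among genes of at least 2000 codons, all 10 members passed with a negative difference, and so did 62.8% of the 277 genes of that length. Between 1000 and 2000 codons the median was -1.17 for 9 writers, -0.42 for 16 erasers and -0.55 for 1183 genes in all. Between 500 and 1000 codons it was -0.55 for 11 writers, 0.12 for 5 erasers and -0.10 for all 3044 genes. Below 500 codons it was -0.20 for 7 writers, 0.05 for 4 erasers and 0.32 for 4779 genes. With RPF taken per kilobase of coding sequence and input per kilobase of transcript, a scaling chosen after seeing the data, the median was -0.25 for the members and 0.88 for all genes.

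Overexpression of METTL1 and WDR4 was first compared in the input libraries, which measure mRNA. The mRNAs of Nsd1 and Hdac2 fell, and none rose past the threshold. These are 2 of 62 members, beside 1.5% of all genes past the threshold in either direction, of which 0.494% of all genes fell and 1.01% rose. In all, 43 of the 62 members had a log2 change below 0, beside 50.3% of all genes, and the median was -0.12 against -0.00. The writers' median was -0.18 with 27 of 37 below 0, and the erasers' median was -0.08 with 16 of 25 below 0. Both OE input values were below both EV values for 17 members (19.4% of all genes) and above them for 9 (21.2% of all genes). Before adjustment, 8 members had a p under 0.05, beside 13.4% of all genes.

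Nsd1 (ENSMUSG00000021488.8, build mm10, chromosome 13, 55209782 to 55318325, plus strand) encodes the methyltransferase that places dimethylation on lysine 36 of H3 and is mutated in Sotos overgrowth syndrome. Its input was 144 and 134 normalized reads in EV and 73.9 and 81.2 in OE. Both OE values lay below both EV values, with a log2 change of -0.83 (SE 0.21, limma adjusted p = 0.0398). The pooled reads, 217 in EV and 107 in OE, gave a ratio of 0.561 after scaling (95% interval 0.441 to 0.711, counting error only). Its RPF was 46.2 and 47.4 in EV and 37.3 and 21.6 in OE, again without overlap, but the log2 change of -0.70 (SE 0.21) did not pass (limma adjusted p = 0.138). It rested on the OE RPF libraries, with -1.08 (adjusted p = 0.0166) without OE RPF 1 and -0.32 (adjusted p = 0.739) without OE RPF 2. The TE change, the RPF change minus the mRNA change, was 0.13 (SE 0.30). The mRNA call depended on the libraries and the test: the adjusted p lay between 0.0735 and 0.220 without any 1 of the EV input, OE input or EV RPF libraries, and it was 0.311 without a trend and 0.390 with DESeq2, but 0.00855 with edgeR and 0.0260 with voom.

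Hdac2 (ENSMUSG00000019777.16, chromosome 10, 36974544 to 37001889, plus strand) encodes a class I deacetylase, which works with Hdac1 in the Sin3, NuRD and CoREST complexes. Its input was 139 and 146 normalized reads in EV and 83.5 and 94.5 in OE. The groups did not overlap, and the log2 change was -0.68 (SE 0.16, limma adjusted p = 0.0311). The pooled reads, 223 in EV and 123 in OE, gave a scaled ratio of 0.628 (95% interval 0.50 to 0.786, counting error only). Its RPF was 173 and 149 in EV and 167 and 111 in OE, with overlap, and the log2 change was -0.24 (SE 0.16, limma adjusted p = 0.681). The TE change was 0.44 (SE 0.23, limma adjusted p = 0.916). This mRNA call too was lost without EV input 1 (0.122), EV input 2 (0.198), OE input 1 (0.183), EV RPF 1 (0.0637) or EV RPF 2 (0.0626), and with edgeR (0.0629), voom (0.128), DESeq2 (0.577) or no trend (0.344), all adjusted p-values. For Hdac1 the input was 33.4 and 54.8 in EV and 45.0 and 38.6 in OE, and the log2 change was -0.04 (SE 0.32).

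In bulk libraries, fewer cells with an mRNA and less of it per cell cannot be told apart. Both OE input libraries were also shallower than both EV input libraries (294367 and 357305 against 365962 and 371520 reads). The 14 fibroblast markers summed to 5451 and 5671 normalized reads in EV input and to 6507 and 6279 in OE input. Their median mRNA log2 change was 0.16, and 3 of the 14 were below 0, down to -0.27. Only Col1a1, a fibrillar collagen with the largest rise of the 14, passed the threshold (0.46, SE 0.07, limma adjusted p = 0.00042). The part of these differences in the results on Nsd1 and Hdac2 was not tested.

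**Figure D2:**
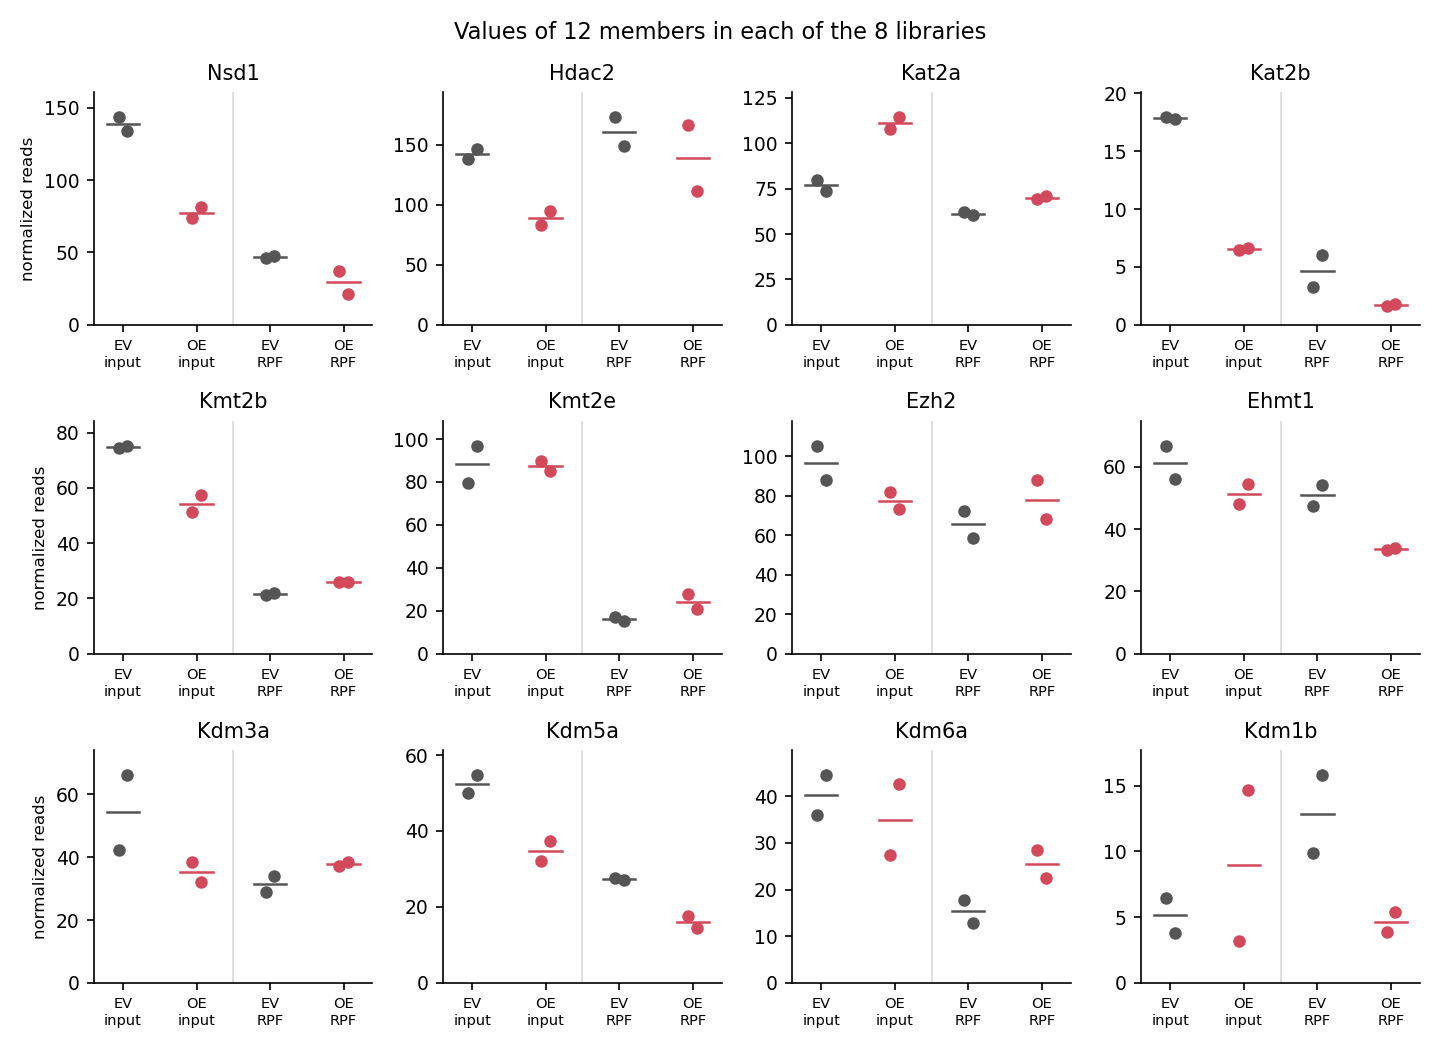
Normalized reads of 12 members in each of the 8 libraries, with 1 point per library, horizontal bars for the mean of 2 libraries, grey for EV and red for OE; each panel has its own linear axis from 0. Nsd1 and Hdac2 input lie lower in both OE libraries, whereas the Kdm1b input libraries overlap.

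No other member passed in the input libraries, and the other genes are given by their values. Kat2a and Kat2b are paralogous acetyltransferases that serve as alternative catalytic subunits of the SAGA and ATAC complexes. Kat2b input was 18.0 and 17.8 normalized reads in EV and 6.42 and 6.66 in OE, which are 28 pooled reads against 9, and the log2 change was -1.33 (SE 0.48, limma adjusted p = 0.189). Kat2a input was 79.6 and 73.9 in EV and 108 and 114 in OE, with a log2 change of 0.53 (SE 0.17, limma adjusted p = 0.114). Neither pair of groups overlapped, and the paralogs lay on opposite sides. Per kilobase, Kat2a input was 6.55 times that of Kat2b in EV and 25.9 times in OE, although the difference between the paralogs was not tested. Kdm2a, a demethylase of lysine 36 of H3 that binds CpG islands, had 145 and 136 in EV and 93.1 and 121 in OE (log2 change -0.40, SE 0.16, and -0.21 without OE input 1). Setd7, a methyltransferase of H3 lysine 4 and of non-histone proteins, had 48.8 and 50.9 in EV and 33.7 and 33.3 in OE (log2 change -0.56, SE 0.25). Among the class IIa deacetylases, which shuttle between nucleus and cytoplasm, Hdac4 had 15.4 and 14.0 in EV and 27.3 and 21.3 in OE, and Hdac5 had 65.5 and 56.0 against 77.1 and 74.6. Setd1a, a methyltransferase of H3 lysine 4, had 14.1 and 19.1 in EV and 28.9 and 22.6 in OE, but 52.3% of its exon bases overlap another gene, so its counts are uncertain.

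In the RPF libraries, which count ribosomes on the mRNAs, 0 of 62 members passed the limma threshold, beside 0.956% of all genes. Unadjusted, 9 members had a limma p under 0.05, beside 10.2% of all genes, and edgeR, limma voom and DESeq2 also called 0 members (27 members had no adjusted p in DESeq2). The median log2 change was -0.05 for the members, -0.00 for the writers and -0.13 for the erasers, of which 17 of 25 were below 0 (50.2% of all genes). Both OE values lay below both EV values for 17 members (22.2% of all genes) and above them for 9 (21.9% of all genes).

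After Nsd1, the negative RPF changes with the smallest p-values were those of Kdm5a, Ehmt1 and Kdm3b, and Kdm1b, Dot1l and Kat2b also had an unadjusted p under 0.05. Kdm5a, a demethylase of H3 lysine 4 first known as a binding partner of the retinoblastoma protein, had 27.7 and 27.1 normalized RPF reads in EV and 17.6 and 14.4 in OE (log2 change -0.75, SE 0.26, limma adjusted p = 0.215). Its input also lay lower, with 50.1 and 54.8 in EV against 32.1 and 37.3 in OE (log2 change -0.58, SE 0.26), so its TE change was -0.17 (SE 0.37). Ehmt1, which forms a heterodimer with Ehmt2 that places mono- and dimethylation on H3 lysine 9, had RPF of 47.5 and 54.2 in EV and 33.5 and 34.1 in OE (log2 change -0.57, SE 0.21, limma adjusted p = 0.256). Its input was 66.7 and 56.0 against 48.2 and 54.6. Kdm3b, a demethylase of H3 lysine 9, had RPF of 69.2 and 57.2 in EV and 44.5 and 44.9 in OE (log2 change -0.49, SE 0.19), and 24.6% of its exon bases overlap another gene. For all 3 genes the OE values lay below the EV values without overlap.

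The positive RPF changes with the smallest p-values were those of Kmt2e, Kdm6a, Kat6b and Kdm5b. Kmt2e, a member of the Kmt2 family with little or no catalytic activity of its own, had RPF of 17.1 and 15.1 in EV and 27.99 and 20.7 in OE (log2 change 0.55, SE 0.23, limma adjusted p = 0.356), while its input was 79.6 and 96.8 in EV and 89.9 and 85.2 in OE. Kdm6a had RPF of 17.8 and 12.8 in EV and 28.5 and 22.4 in OE (log2 change 0.71, SE 0.29, limma adjusted p = 0.356). In both genes the RPF groups did not overlap and the input groups did. Kat6b, the acetyltransferase subunit of a MOZ/MORF complex, had RPF of 3.96 and 4.52 in EV and 6.04 and 8.98 in OE, which are 12 pooled reads against 21. Kdm5b, a demethylase of H3 lysine 4, had RPF of 10.5 and 12.8 in EV and 18.1 and 15.3 in OE (log2 change 0.48, SE 0.36).

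**Figure D3:**
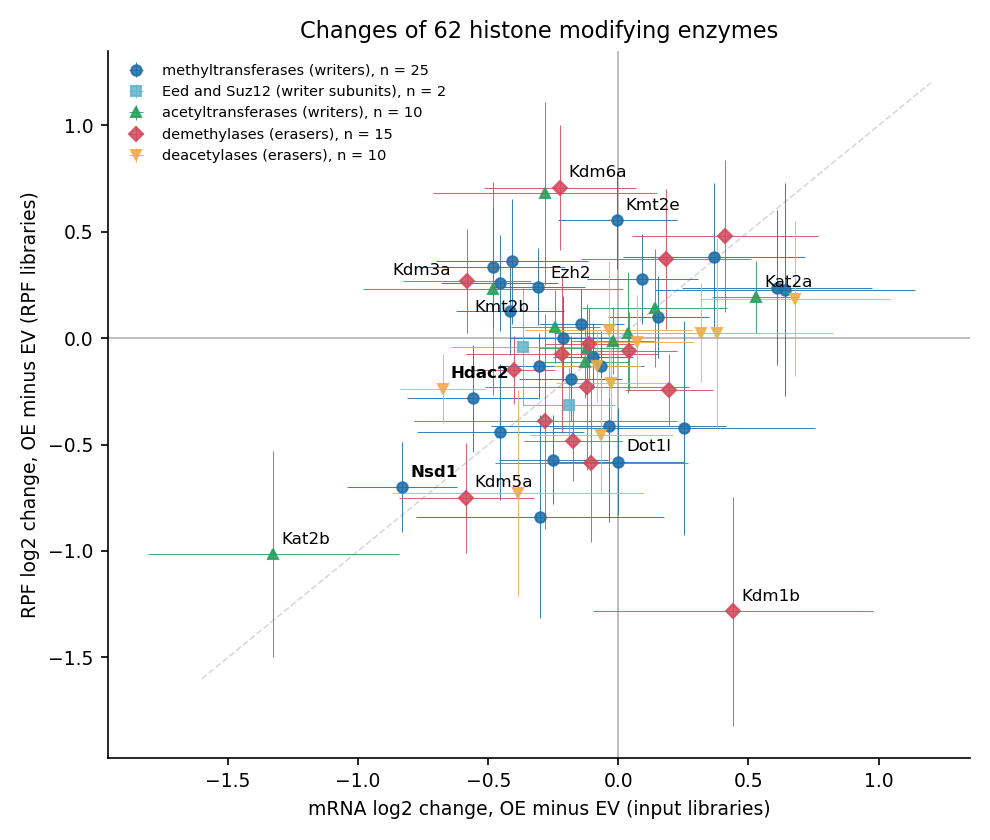
mRNA log2 change (horizontal axis, input libraries) against RPF log2 change (vertical axis), OE minus EV, for the 62 members, coloured by class, with bars of 1 SE and a dashed line of equal change. Nsd1 and Hdac2, in bold, passed the threshold for mRNA; no member passed for RPF.

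Translational efficiency (TE) was the RPF change minus the mRNA change, tested as the interaction of genotype and kind of library. With limma 0 of 62 members passed, beside 0.0% of all 9307 genes. Unadjusted, 6 members had a limma p under 0.05 (5.46% of all genes), and edgeR, voom and DESeq2 called 0 members. The median log2 TE change was 0.02 for the writers, of which 13 of 37 were below 0 (50.7% of all genes), and -0.11 for the erasers, of which 16 of 25 were below 0. Among the 10 deacetylases 8 were below 0.

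The 6 members with an unadjusted p under 0.05 were Ezh2, Kmt2b, Setd1b, Kdm3a and Kdm6a with positive changes and Kdm1b with a negative one. Kdm3a, a demethylase of H3 lysine 9 that is induced by hypoxia, had input of 42.4 and 66.2 in EV and 38.5 and 31.95 in OE, and RPF of 29.0 and 33.9 in EV and 37.3 and 38.6 in OE. Neither kind of library overlapped between the groups, and the directions were opposite (TE log2 change 0.85, SE 0.35, limma adjusted p = 0.899). Kmt2b, a methyltransferase of H3 lysine 4, had input of 74.4 and 75.1 in EV and 51.4 and 57.2 in OE and RPF of 21.1 and 21.8 in EV and 25.8 and 26.0 in OE. Here too the groups did not overlap in either kind of library (TE log2 change 0.72, SE 0.32, limma adjusted p = 0.899). Kdm6a had input of 35.9 and 44.6 in EV and 27.3 and 42.6 in OE, and its TE log2 change was 0.93 (SE 0.41, limma adjusted p = 0.899). Kdm1b, a flavin-dependent demethylase of H3 lysine 4, had input of 6.42 and 3.82 in EV and 3.21 and 14.6 in OE, and RPF of 9.89 and 15.8 in EV and 3.84 and 5.39 in OE. The input groups overlapped, since the OE libraries differed more from each other than from EV. Its TE log2 change was -1.72 (SE 0.76), and it ranged from -2.67 to -0.78 over the alternatives that were run.

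After Kdm1b, the negative TE changes with the smallest p-values were those of Kdm1a, Dot1l and Kat2a. Kdm1a, the flavin-dependent demethylase of the CoREST complex, had input of 74.4 and 94.2 in EV and 96.3 and 95.9 in OE and RPF of 89.0 and 105 against 86.2 and 77.2. All its OE input values lay above EV and all its OE RPF values below (TE log2 change -0.44, SE 0.24, limma adjusted p = 0.916). Dot1l, the methyltransferase of H3 lysine 79, had input of 53.9 and 47.1 in EV and 43.4 and 58.6 in OE and RPF of 25.7 and 24.8 against 17.0 and 16.2 (TE log2 change -0.58, SE 0.36). Kat2a RPF was 61.97 and 60.2 in EV and 69.1 and 70.9 in OE, and its TE log2 change was -0.33 (SE 0.24). In the authors' deposited table, the log2 TE change was -2.34 with a p-value of 0.0488 for Kdm1b, -0.63 with 0.243 for Dot1l and -0.43 with 0.225 for Kdm1a.

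PRC2, the complex that methylates H3 lysine 27, was examined through its 4 genes among the members, Ezh1, Ezh2, Eed and Suz12. All 4 had an mRNA log2 change below 0 (50.3% of all genes), from -0.37 to -0.19, and none passed. Other PRC2 subunits belong to the list of partners described below and are not counted here. Among them, Mtf2 had an mRNA log2 change of 0.12 (SE 0.26) and Rbbp4 one of -0.08 (SE 0.11). Ezh2, the catalytic subunit of dividing cells, had input of 105 and 87.9 in EV and 81.9 and 73.2 in OE and RPF of 72.5 and 58.7 against 87.8 and 68.2. Its input groups did not overlap, its RPF groups did, and the TE log2 change was 0.55 (SE 0.26, limma adjusted p = 0.899). Ezh1, the catalytic subunit known from resting cells, had input of 12.8 and 6.37 in EV and 9.63 and 5.33 in OE and RPF of 12.5 and 8.28 against 4.39 and 6.29 (TE log2 change -0.54, SE 0.67). Per kilobase, Ezh2 input was 15.1 times that of Ezh1 in EV and 15.6 times in OE, and Ezh2 RPF was 6.34 times that of Ezh1 in EV and 14.7 times in OE. These ratios rest on Ezh1 values of at most 12.8 normalized reads, and the difference between the paralogs was not tested. Suz12 had input of 109 and 143 against 96.3 and 124 and RPF of 76.5 and 80.6 against 70.2 and 56.6. Eed had input of 30.8 and 56.0 against 25.7 and 39.9 and RPF of 32.3 and 41.4 against 39.0 and 32.3, with overlap in both.

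Of the other pairs of paralogs, none differed past the threshold between OE and EV. Ehmt2 had input of 196 and 196 in EV and 175 and 144 in OE, without overlap (log2 change -0.31, SE 0.15, limma adjusted p = 0.401), and RPF of 87.7 and 85.8 against 69.1 and 90.7. Suv39h1, which trimethylates H3 lysine 9 in heterochromatin, had input of 61.6 and 53.5 against 54.6 and 46.6 and RPF of 55.4 and 58.0 against 48.8 and 50.3. Suv39h2 had input of 18.0 and 28.02 against 25.7 and 33.3 and RPF of 9.23 and 12.05 against 11.5 and 17.1. Per kilobase, Suv39h1 had 3.90 times the input and 6.15 times the RPF of Suv39h2 in EV cells.

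The coactivators Ep300 and Crebbp, which acetylate H3 lysine 27 at enhancers, were nearly level with each other in input per kilobase. Ep300 had input of 177 and 139 in EV and 141 and 169 in OE and RPF of 94.9 and 85.8 against 96.0 and 83.5. Its mRNA and TE log2 changes were -0.02 (SE 0.16) and 0.01 (SE 0.22). Crebbp had input of 171 and 181 against 148 and 174 and RPF of 65.9 and 70.0 against 75.7 and 52.1, with a TE log2 change of 0.02 (SE 0.24). Per kilobase, Ep300 had 1.02 times the input and 1.35 times the RPF of Crebbp in EV.

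The Kmt2 genes other than Kmt2e encode large methyltransferases of H3 lysine 4 that act in COMPASS-like complexes. With Kmt2e included, the 5 mRNA log2 changes of the Kmt2 genes lay between -0.46 and -0.00, and none passed. Their TE log2 changes lay between 0.01 and 0.72, and in the authors' deposited table that of Kmt2c was -0.0017. Kmt2a input was 110 and 99.3 in EV and 80.3 and 101 in OE and its RPF 48.8 and 36.9 against 48.8 and 36.8. Kmt2d, which marks enhancers, had input of 291 and 264 against 230 and 274 and RPF of 67.9 and 54.2 against 75.2 and 53.9. Its paralog Kmt2c had input of 34.7 and 44.6 against 22.5 and 35.9 and RPF of 15.8 and 16.6 against 13.7 and 9.88. Per kilobase, Kmt2d had 5.29 times the input and 3.31 times the RPF of Kmt2c in EV. For Kdm6b, which opposes PRC2, input was 35.3 and 47.9 and RPF 5.49 and 3.59 in OE, so its TE log2 change was 0.14 (SE 0.52).

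The remaining members were spread on both sides of 0, and none passed in OE against EV. Among the writers, Setd5, a SET-domain protein with little or no known activity on histones, had input of 142 and 125 in EV and 89.9 and 110 in OE, without overlap, and RPF of 27.7 and 24.8 against 34.0 and 24.2 (TE log2 change 0.54, SE 0.29). Setd1b, a methyltransferase of H3 lysine 4, had input of 75.7 and 54.8 against 56.2 and 37.3 and RPF of 16.5 and 13.6 against 22.5 and 16.2 (TE log2 change 0.82, SE 0.40, limma adjusted p = 0.899). Kmt5b, which methylates lysine 20 of histone H4, had input of 37.2 and 40.8 against 28.9 and 29.3 and RPF of 15.8 and 12.05 against 18.1 and 18.0, so its OE values lay below EV in input and above EV in RPF (TE log2 change 0.77, SE 0.41). Kmt5a, which places the first methyl group on that lysine, had mRNA and RPF log2 changes of 0.09 and 0.28 (SE 0.21 for both). The acetyltransferases Kat5, Kat6a, Kat7 and Kat14 had mRNA changes between -0.24 and 0.14 and RPF changes between -0.05 and 0.14. For Setdb1, which methylates H3 lysine 9 at retroelements, they were 0.15 and 0.10 (SE 0.19 for both).

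Among the erasers, Hdac3, the deacetylase of the NCoR complex, had input of 96.3 and 82.8 in EV and 83.5 and 85.2 in OE and RPF of 89.7 and 81.3 against 82.3 and 73.6, close to level in both. Sirt1, an NAD-dependent deacetylase, had input of 29.5 and 25.5 against 25.7 and 26.6 and RPF of 28.3 and 31.6 against 22.5 and 20.7. Its RPF groups did not overlap and its input groups did (RPF log2 change -0.46, SE 0.27, limma adjusted p = 0.621). Hdac6 and Hdac7 had mRNA changes of 0.07 and -0.03 and RPF changes of -0.02 and -0.21. The Kdm4 demethylases of H3 lysines 9 and 36 had mRNA changes from -0.12 to 0.18 and RPF changes from -0.23 to 0.37. Kdm5c had changes of -0.11 and -0.03, and Kdm2b, a CpG island binder of a PRC1 complex, of -0.10 and -0.59 (SE 0.37 for both). Kat8, Setd3, Setd6, Setdb2, Hdac8, Hdac10 and Kdm5d had at most 20.9 normalized reads in any library and an SE of 0.45 to 0.50, with mRNA log2 changes from -0.48 to 0.64 and RPF changes from -0.73 to 0.23 that this depth cannot tell from 0.

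The members were also grouped by the residue they act on, from textbook substrates and with the values known, so the medians are a description. The groups are not complete. Setd7 and Kmt2e were left out of the lysine 4 writers, and the Kdm4 genes were counted under lysine 9 only. The 6 grouped writers of H3 lysine 4 methylation had median log2 changes of -0.33 for mRNA, 0.15 for RPF and 0.21 for TE. The changes below 0 numbered 5, 2 and 1 (50.3%, 50.2% and 50.7% of all genes). Setd1a, whose counts are uncertain, had the only mRNA change above 0 (0.61) and the only TE change below 0 (-0.37). For the 6 erasers of that mark the medians were 0.04 for mRNA, -0.32 for RPF and -0.14 for TE, with 3, 5 and 4 below 0. Among these erasers Kdm1b and Kdm5d had few reads, and the lowest TE change, -1.72, was that of Kdm1b. For H3 lysine 9 the median mRNA change was -0.01 over 6 writers and -0.12 over 5 erasers. Medians of groups of 1 or 2 genes rest on those genes alone. Kdm6a and Kdm6b, the erasers of H3 lysine 27 methylation, had a median RPF log2 change of 0.32 and a median TE change of 0.54, and Kmt5a and Kmt5b, the writers of H4 lysine 20 methylation, had 0.32 and 0.48. The 2 Kdm2 erasers of H3 lysine 36 had a median RPF change of -0.37, and Dot1l, the writer of H3 lysine 79, had RPF and TE changes of -0.58. The 3 writers of H3 lysine 36 methylation (Nsd1, Setd2 and Ash1l) each had an mRNA log2 change below 0, from -0.83 to -0.07, and of these only Nsd1 passed. Setd2, which places trimethylation there, had a change of -0.07 (SE 0.17), and Ash1l one of -0.10 (SE 0.15).

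The METTL1 complex is known to modify, among others, the arginine tRNA that reads the codon AGA, so the AGA content of the coding sequences was counted in the reference transcripts (GENCODE release 21, build mm10, the longest complete coding sequence of each gene). AGA made up 1.13% of the members' codons (956 of 84832) and 1.25% of the codons of all genes. Ezh2 and Suv39h2 have a high share and their paralogs Ezh1 and Suv39h1 a low one. The window of 30 codons with the most AGA in each is printed because it shows the contrast between enzymes that place the same mark. In-frame AGA codons are in capitals, and the coding strand is shown 5′ to 3′. Ezh2 lies on chromosome 6, Ezh1 on chromosome 11, Suv39h2 on chromosome 2 and Suv39h1 on chromosome X, all on the minus strand.
Ezh2, codons 23 to 52: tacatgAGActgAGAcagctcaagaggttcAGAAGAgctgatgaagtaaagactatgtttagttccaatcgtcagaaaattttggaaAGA
Ezh1, codons 1 to 30: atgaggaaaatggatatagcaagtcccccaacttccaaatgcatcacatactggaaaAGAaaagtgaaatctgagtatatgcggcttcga
Suv39h2, codons 185 to 214: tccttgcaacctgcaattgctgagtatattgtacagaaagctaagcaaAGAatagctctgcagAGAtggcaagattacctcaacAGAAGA
Suv39h1, codons 67 to 96: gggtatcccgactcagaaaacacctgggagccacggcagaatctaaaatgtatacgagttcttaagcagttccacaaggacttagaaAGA

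The Ezh2 window holds 5 AGA codons and the Suv39h2 window 4, and the best windows of Ezh1 and Suv39h1 hold 1 each. Over the whole coding sequence Ezh2 has 20 AGA codons of 746 (2.68%), Ezh1 5 of 750 (0.667%), Suv39h2 13 of 477 (2.73%) and Suv39h1 2 of 413 (0.484%). The TE log2 change was 0.55 (SE 0.26) for Ezh2 and -0.54 (SE 0.67) for Ezh1, but 0.01 (SE 0.50) for Suv39h2 and -0.01 (SE 0.28) for Suv39h1. Suz12, with 2.56% AGA, had a TE log2 change of -0.12 (SE 0.25), and Hdac8, with 0 AGA codons, one of -0.35 (SE 0.63). Spearman's rho between the AGA share and the TE change was 0.21 over the 62 members and 0.04 over all genes, as a description across genes that share the same libraries.

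**Figure D4:**
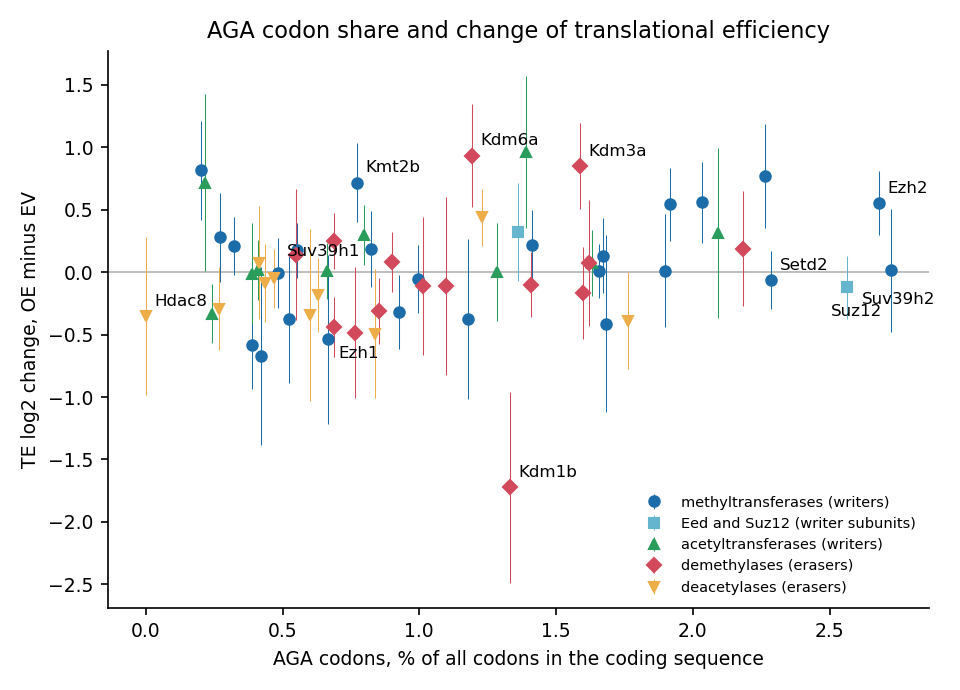
Share of AGA among all codons of the coding sequence (horizontal axis, %) against TE log2 change, OE minus EV (vertical axis), for the 62 members by class, with bars of 1 SE. Of the members with a high share, Ezh2 (2.68%) lies above 0, Suv39h2 (2.73%) near 0 and Suz12 (2.56%) at -0.12. No member passed the threshold.

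The subunits that work with these enzymes were examined as a second list of 87 gene symbols, of which 86 were listed (Ccdc101 was not). With limma none of the 86 passed for mRNA, RPF or TE, and 9, 10 and 4 had an unadjusted p under 0.05 (13.4%, 10.2% and 5.46% of all genes). For RPF, edgeR called Cbx3, a reader of H3 lysine 9 methylation, whose limma log2 change was 0.96 (SE 0.31, adjusted p = 0.167). By unadjusted p the leading mRNA changes were 0.99 (SE 0.37) for Supt3 of SAGA and 0.74 (SE 0.34) for Gps2 of the NCoR complex on the high side. On the low side they were -1.09 (SE 0.39) for Tada3, a subunit shared by SAGA and ATAC, and -0.32 (SE 0.12) for Trrap, a scaffold of SAGA and of the Kat5 complex. In EV cells 36 of the 86 had RPF below input past the threshold and 8 above it (19.1% and 18.5% of all genes), with a median log2 difference of -0.47.

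A further list held other enzymes of histone modification that the rule leaves out, such as arginine methyltransferases, Smyd and Prmt genes and ubiquitin ligases, and 59 of its 62 genes were listed. With limma none passed for mRNA, RPF or TE, and 6, 4 and 1 had an unadjusted p under 0.05 (13.4%, 10.2% and 5.46% of all genes). The leading mRNA changes were 1.38 (SE 0.42, limma adjusted p = 0.0969) for Riox2, a JmjC-domain hydroxylase, 0.76 (SE 0.25) for Clock, a circadian factor, -0.64 (SE 0.21) for Aurkb, the kinase of H3 serine 10, and -0.81 (SE 0.34) for Prmt2. In EV cells 17 of the 59 had RPF below input past the threshold and 6 above it (19.1% and 18.5% of all genes), with a median log2 difference of -0.25.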

How the data were processed

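Ribosomal RNA was depleted, and the TruSeq Ribo Profile kit gave the input and RPF libraries of EV and OE cells, per the labels' protocols. Groups and replicate numbers came from each sample's title. Reads were aligned with Bowtie to mm10, per the submitters' processing notes. Not given in the sources used here are the version, the program that counted reads, whether it used strand, how it treated multiply mapped reads, and the gene models. The authors deposited 1 signal value per gene and library, which equals reads divided by a median-of-ratios size factor. Every value was a whole multiple of what 1 read is worth (100% of values, tolerance 1e-06), so whole reads were recovered. The authors also deposited a log2 change of TE and its p-value for each gene, which matched a DESeq2 interaction test of the recovered reads to within 7.06e-15 and 1.62e-14 over the members. Of 9309 lines of values 2 were blank. The lowest recovered count of a listed gene in any library was 1 read.

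Since the table holds normalized values, the main test was limma 3.58.1 in R 4.3.3 fitted to the 8 libraries together, on log2(value + 1), with a trend of variance on mean and a minimum mean of 1, in place of a count test. The scale understates changes of low genes. Contrasts were OE against EV in input, OE against EV in RPF, their difference (TE), and RPF against input in EV. Count tests with edgeR 4.0.16, DESeq2 1.42.0 and limma voom on the recovered reads were alternatives, and edgeR called 57 genes for mRNA, 301 for RPF and 1 for TE. The scripts were tested on simulated data. Gene identifiers were matched to GENCODE release 21 without the version suffix (9306 of 9307). Intervals of read ratios cover counting error only.

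Members, gene lists and tests were chosen with earlier results of these data known. Full values were given for members past the threshold, for the 4 members with the smallest p in each direction of each comparison, and for fixed pairs of paralogs and complexes; Setd7, Setd5, Setd1b, Kmt5b, Hdac3, Sirt1 and the members named for RPF relative to input were added after their values were seen. Libraries were not paired by replicate number in the main test. Deviations of same-numbered libraries correlated between -0.02 and 0.03 over all genes. With a median of 15 to 38 reads per gene in a library, correlations near 0 cannot show whether same-numbered libraries shared a culture.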

Additional observations from a re-analysis of the deposited data

How the results depend on the processing

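The count of 2 members past the mRNA threshold was 0 in limma without a trend, 1 with edgeR, 0 with DESeq2 and 1 with voom, and it lay between 0 and 2 when 1 library was left out. The RPF count of 0 members lay between 0 and 1 when 1 library was left out, where Nsd1 passed without OE RPF 1 (log2 change -1.08, limma adjusted p = 0.0166). With the replicate number as a block (replicate block), the counts of members stayed at 2 for mRNA, 0 for RPF, 0 for TE and 32 for RPF relative to input. The members' median ranged from -0.169 to 0.0522 for RPF and from -0.0692 to 0.102 for TE when 1 library was left out. For RPF relative to input in EV it was -0.80 with a mean of at least 10 and -0.74 to -0.60 with 1 library left out. Over all genes, the mRNA count of 140 became 2 without a trend, 57 with edgeR, 15 with DESeq2, 49 with voom, 47 with the 4 libraries of the comparison and 50 to 156 with 1 library left out. The RPF count of 89 became 1, 301, 25, 90, 162 and 16 to 100 in the same order. The TE count of 0 became 1 with edgeR, 7 with a block for each culture and up to 5 with 1 library left out. The count of 3505 for RPF relative to input became 2252 with DESeq2. Causes were not tested. The single-gene results counted next were chosen for small p-values or extreme differences in these same 8 libraries. Every alternative reuses these libraries, so a kept sign is no independent check. Of 594 values of 32 single-gene results under the alternatives, 0 changed sign, 17 lost the threshold and 3 passed it.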
